A study of Mus musculus with 4 samples.

Results

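The genes described here are 10 antioxidant and glutathione genes of mouse mammary epithelium, Srxn1, Txnrd1, Nqo1, Gclm, Gclc, Prdx1, Txn1, Gsta4, Gstm1 and Hmox1. They were taken by symbol from the 27998 genes of each count table, and their levels were compared among 3 cell classes in 3 single-cell libraries. Srxn1 was chosen by its high value in basal cells of puberty, and the others were grouped with it. Its level in basal cells is therefore given as a description, with no test, and only its LP against ML difference was tested. The cells came from FVB/NJ female mice, from glands at puberty (5 weeks) and from adult glands (10 weeks) taken in estrus, around ovulation, or in diestrus, the luteal phase of the cycle. The labels list no treatment. By the study's methods, total epithelium was sorted as lineage-negative CD24+ cells, and the cells of more than 1 mouse were pooled in a library, so the values of single animals cannot be separated. Each stage was represented by 1 library, and differences between stages therefore have no replicate check and no p-value.

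The puberty library held 5428 cell barcodes, the estrus library 2729 and the diestrus library 2439, with medians of 4103, 3236 and 3974 counts per cell. A second puberty table held 5387 of the same barcodes (99.2%) and was used only as an alternative, while the 3 libraries shared between 13 and 24 barcodes in pairs. Cells were classed as basal-like, luminal progenitor-like (LP) or mature luminal-like (ML) from lists of 8 markers per class, and none of the 10 genes entered the classing. Basal, LP and ML classes held 1138, 1771 and 2183 cells in puberty, 1311, 473 and 784 cells in estrus, and 1053, 564 and 677 cells in diestrus. The median basal cell had counts for 6 or 7 of its 8 markers, the median LP or ML cell for 5 of 8, and every class had a median of 0 for the markers of each other class. The classing started from these markers, so the medians describe the classes and are no separate check of them. Between 4.11% and 5.23% of epithelial cells per library lay within 0.1 of a class border. The summed level of 6 immune markers was at most 1.84 CPM in these classes and that of 5 endothelial markers at most 10.6 CPM, where CPM is counts scaled to the total counts of a sum of cells, here without TMM scaling. Of the 6 fibroblast markers, Dcn alone was above 10 CPM, in basal and ML cells. Hemoglobin markers summed to 1012 CPM in LP cells of estrus and 540.2 CPM in ML cells of diestrus, and their part in the results was not tested.

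The products of these genes work in linked cycles. Peroxiredoxins such as PRDX1 reduce peroxides with a reactive cysteine, thioredoxin (TXN1) reduces them again, and thioredoxin reductase (TXNRD1) restores thioredoxin with NADPH. A peroxiredoxin that has been overoxidised is repaired by sulfiredoxin (SRXN1). Glutathione is made in a pathway whose first, rate-limiting step is carried out by glutamate-cysteine ligase, with GCLC as its catalytic and GCLM as its modifier subunit. GSTA4 and GSTM1 conjugate glutathione to reactive compounds, NQO1 reduces quinones, and HMOX1 breaks down heme. Many of these genes are known targets of the transcription factor NRF2 (gene Nfe2l2), which is held low by KEAP1 and pairs with small MAF proteins at the antioxidant response element.

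All 10 genes are protein coding. On GRCm38, with the GENCODE M21 annotation, Srxn1 lies on chromosome 2 (152105516 to 152111376) and Txnrd1 on chromosome 10 (82833951 to 82897712). Nqo1 (107388225 to 107403206) and Hmox1 (75093621 to 75100589) lie on chromosome 8. Gclm (122245557 to 122270732) and Gstm1 (108012255 to 108017973) lie on chromosome 3, Prdx1 (116685544 to 116700822) and Txn1 (57943373 to 57956411) on chromosome 4, and Gclc (77754535 to 77794485) and Gsta4 (78182774 to 78209349) on chromosome 9. The platform reads the 3′ ends of transcripts. Of the 50-base words in the last 500 bases of the annotated transcripts, 23.0% for Gstm1, 17.8% for Prdx1 and 10.3% for Gclm were also found in transcripts of other genes, and none were for the other 7 genes. The levels of those 3 genes are uncertain to the extent that reads were divided among copies. Exons of Gclm also share 540 bases with a pair of other annotated genes, 1 of them antisense.

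The 250 bases before the annotated start were available for 7 of the 10 genes in a RefSeq promoter table on GRCm38.p6. Both strands were searched for TGACNNNGC, the core of the antioxidant response element, and for its variant TGAGNNNGC. At least 1 match was found for 4 of the 7 genes (Srxn1, Txnrd1, Gclm and Prdx1), against 25.7% of all genes in the table (11.5% for TGACNNNGC and 16.3% for TGAGNNNGC). The 4 windows with a match are shown to place it relative to the start, 5′ to 3′ on the gene's strand, with the matched bases in capitals.
Srxn1, chr2:152105274-152105523, plus strand: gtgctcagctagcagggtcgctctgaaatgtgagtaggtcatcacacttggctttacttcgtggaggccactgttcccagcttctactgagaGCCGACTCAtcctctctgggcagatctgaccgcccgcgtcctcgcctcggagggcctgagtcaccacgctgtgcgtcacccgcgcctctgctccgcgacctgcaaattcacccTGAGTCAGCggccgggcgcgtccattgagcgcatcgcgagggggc
Txnrd1, chr10:82858956-82859205, plus strand: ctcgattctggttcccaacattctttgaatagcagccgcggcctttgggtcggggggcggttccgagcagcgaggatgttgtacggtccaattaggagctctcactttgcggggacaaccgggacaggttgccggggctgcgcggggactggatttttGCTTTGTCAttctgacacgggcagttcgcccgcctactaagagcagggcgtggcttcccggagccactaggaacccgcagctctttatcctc
Gclm, chr3:122245307-122245556, plus strand: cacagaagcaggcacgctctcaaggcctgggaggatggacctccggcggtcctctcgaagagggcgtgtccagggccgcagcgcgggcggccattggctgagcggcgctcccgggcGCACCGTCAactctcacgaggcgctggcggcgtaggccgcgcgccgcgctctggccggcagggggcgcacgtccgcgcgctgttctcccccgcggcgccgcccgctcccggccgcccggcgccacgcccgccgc
Prdx1, chr4:116685349-116685598, plus strand: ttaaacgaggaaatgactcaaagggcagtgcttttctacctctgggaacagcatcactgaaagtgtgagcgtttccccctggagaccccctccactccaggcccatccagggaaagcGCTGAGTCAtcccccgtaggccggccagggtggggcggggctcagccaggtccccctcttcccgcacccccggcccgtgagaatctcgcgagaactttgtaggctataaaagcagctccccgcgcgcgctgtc

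The matches began 158 and 45 bases before the start in Srxn1, 92 in Txnrd1, 134 in Gclm and 133 in Prdx1. The match at 45 bases in Srxn1 and that in Prdx1 also hold TGAGTCA, the motif bound by AP-1 factors, which is present in these windows for 5.16% of all genes. The other Txnrd1 starts and the windows of Nqo1, Txn1 and Gstm1 held no match, which says only that these letters are absent from the 250 bases searched. These matches describe the sequence and were not used in any comparison.

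Levels are given as CPM, the counts of a gene scaled to the total counts of a sum of cells after TMM scaling. Each sum holds all cells of a class in a library. The 3′-end protocol counts molecules, so CPM is not divided by transcript length. Log2 fold changes between classes came from an edgeR quasi-likelihood fit of the 9 sums (3 classes in 3 libraries) with the library as a block. Genes were called at an adjusted p under 0.05 over the 11143 genes tested, and all 10 genes passed the filter on low counts. The block takes out the overall difference between libraries, so the spread behind these tests is how class differences vary among the 3 libraries. Each library is 1 stage and 1 preparation, so that spread does not cover differences between mice of 1 stage. The class differences were large over the whole transcriptome. Of all genes tested, 45.3% were called between basal and LP cells (22.7% higher and 22.6% lower in basal cells), 55.7% between basal and ML cells (29.9% higher, 25.8% lower) and 41.1% between LP and ML cells (21.8% higher, 19.2% lower in LP cells). With library size alone in place of TMM, 64.1% of the basal against LP calls and 38.6% of the LP against ML calls were higher in the class named first, against 50.1% and 53.1% with TMM.

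Against this background, 6 of the 9 genes of the group tested between basal and LP cells were called, 5 higher and 1 lower in basal cells. Between basal and ML cells 7 of 9 were called, 5 higher and 2 lower in basal cells. Between LP and ML cells 6 of 10 were called, 3 higher and 3 lower in LP cells. The median log2 fold change of all 10 genes was 0.39 for basal against LP, 0.96 for basal against ML and -0.10 for LP against ML. Over all genes it was -0.0004, 0.03 and 0.04. The medians of the 10 genes include Srxn1, which was not tested against basal cells and was chosen by its basal level. The genes did not share 1 order of classes. Txnrd1, Gsta4 and Hmox1 were higher in basal cells than in both luminal classes, Nqo1 was highest in LP cells, Gclc and Gclm were highest in ML cells, and Prdx1 differed by less than its standard error in all 3 contrasts.

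**Figure D1:**
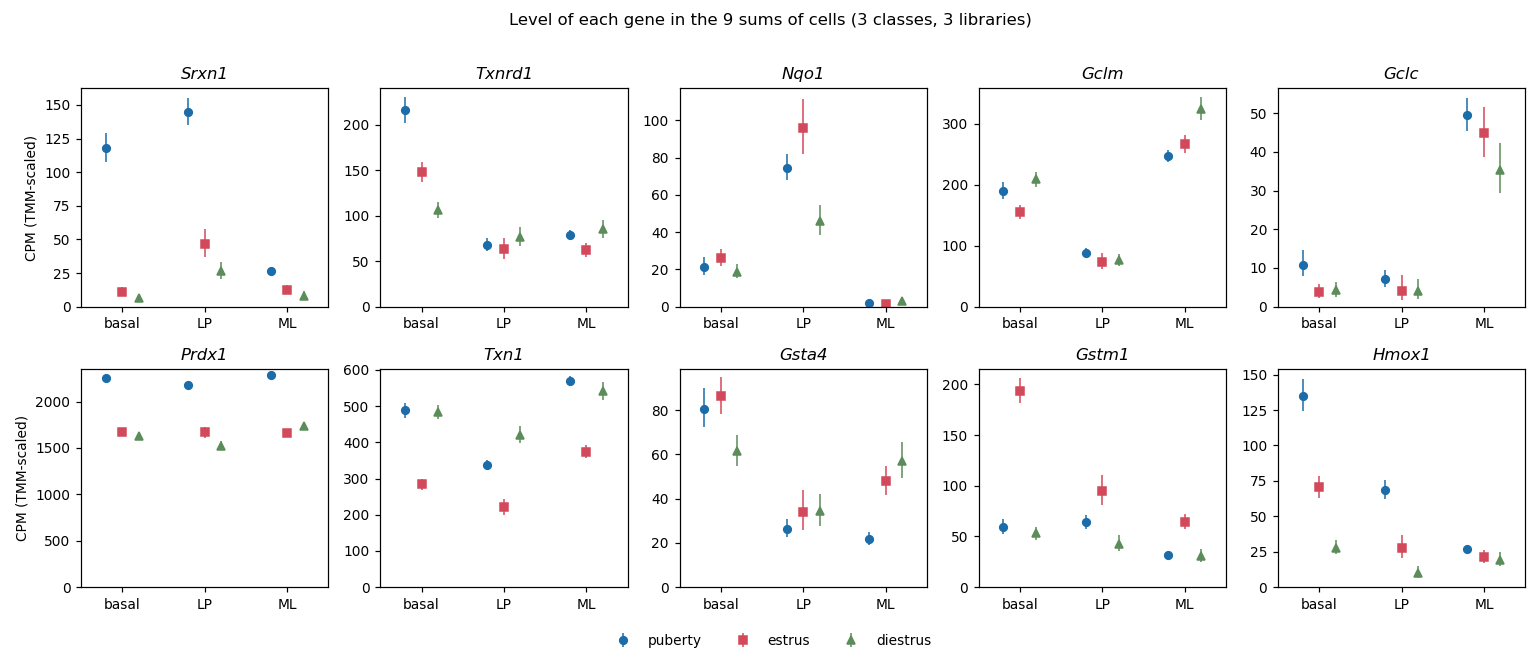
Level of each of the 10 genes in CPM (TMM-scaled, linear axis from 0) in basal, LP and ML cells of the puberty, estrus and diestrus libraries; each point is 1 sum of cells and bars are exact 95% Poisson intervals. Srxn1 was highest in the puberty library in each class, Nqo1 was highest in LP cells and Gclc in ML cells in each library, and Prdx1 had similar levels in all classes of a library.

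Sulfiredoxin was the gene by which the group was chosen. In basal cells Srxn1 was at 118 CPM in puberty (479 counts, interval 107 to 129), 11.2 CPM in estrus (54 counts) and 6.38 CPM in diestrus (32 counts). In LP cells it was at 145 CPM in puberty (865 counts, interval 135 to 155), 46.5 CPM in estrus (82 counts) and 26.6 CPM in diestrus (73 counts). In ML cells it was at 26.4, 12.6 and 8.12 CPM in the same order. The puberty sum of basal cells was thus above both adult sums, but LP cells were above basal cells in each of the 3 libraries. The log2 difference of basal against LP cells was -0.30 in puberty, -1.96 in estrus and -1.90 in diestrus. The fitted log2 fold change was -1.16 for basal against LP cells and 0.97 for basal against ML cells, given as descriptions with no test. The basal against ML log2 difference was 2.11 in puberty, -0.16 in estrus and -0.31 in diestrus, and without the puberty library its fold change was -0.31. The LP against ML contrast was tested, and Srxn1 was 4.37-fold higher in LP cells (log2 fold change 2.13 ± 0.42, adjusted p = 0.00219, edgeR), higher in 3 of 3 libraries. That adjusted p ran from 5.13e-08 to 0.138 over the alternatives, and the call was lost only in the fit without the library block.

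Among cells, most Srxn1 counts of puberty lay in a minority of cells, as did those of several other genes of the group. In puberty 21.5% of basal cells (245 of 1138), 443 of 1771 LP cells and 9.89% of ML cells had a count. The top 10% of basal cells held 72.7% of the Srxn1 counts of their class, and 1 cell had 13 counts. For the other genes the same share ran from 28.3% (Prdx1) to 100% (Nqo1 and Gclc), with 73.4% for Gstm1 and 67.1% for Hmox1. This share depends on the level of a gene, and no value at equal level was computed. Nqo1 and Gclc had 87 and 44 counts there, fewer than the cells of the top 10%, so their 100% was fixed, while Prdx1 had 9158 counts. After each cell was thinned to 2000 counts, which kept the 872 basal cells of puberty that were deep enough, the share with a Srxn1 count was 16.3% in basal cells (exact binomial interval 13.9 to 18.9%), 15.6% in LP cells (13.9 to 17.5%) and 3.64% in ML cells (2.87 to 4.55%). In estrus these thinned shares were 1.79% in basal cells (1.05 to 2.85%), 8.44% in LP cells and 3.21% in ML cells, and in diestrus 1.51%, 4.84% and 1.63%. The variance of thinned Srxn1 counts over cells was 1.96 times the mean in basal cells of puberty. For the other genes it ran from 1.19 times (Txnrd1, with a higher mean there) to 1.84 times (Hmox1), with Prdx1 at 1.73 and Gstm1 at 1.63. Intervals on shares and levels cover counting error only.

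Beside these shares, those of Csn3, a casein gene and LP marker, were taken, since free RNA in a droplet can give counts in cells that do not express a gene. In the thinned puberty cells Csn3 had a count in 94.6% of LP cells, 17.9% of basal cells and 6.44% of ML cells, and in the basal cells of the adult libraries in 2.0% and 2.21%. Csn3 counts thus reached more basal cells in puberty than in the adult libraries, and the 8 LP markers summed to 598 CPM in basal cells of puberty against 189 and 193 CPM in estrus and diestrus. That sum, without TMM scaling, was 39331 CPM in the LP cells of puberty. The part of free RNA in the Srxn1 counts was not tested.

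**Figure D2:**
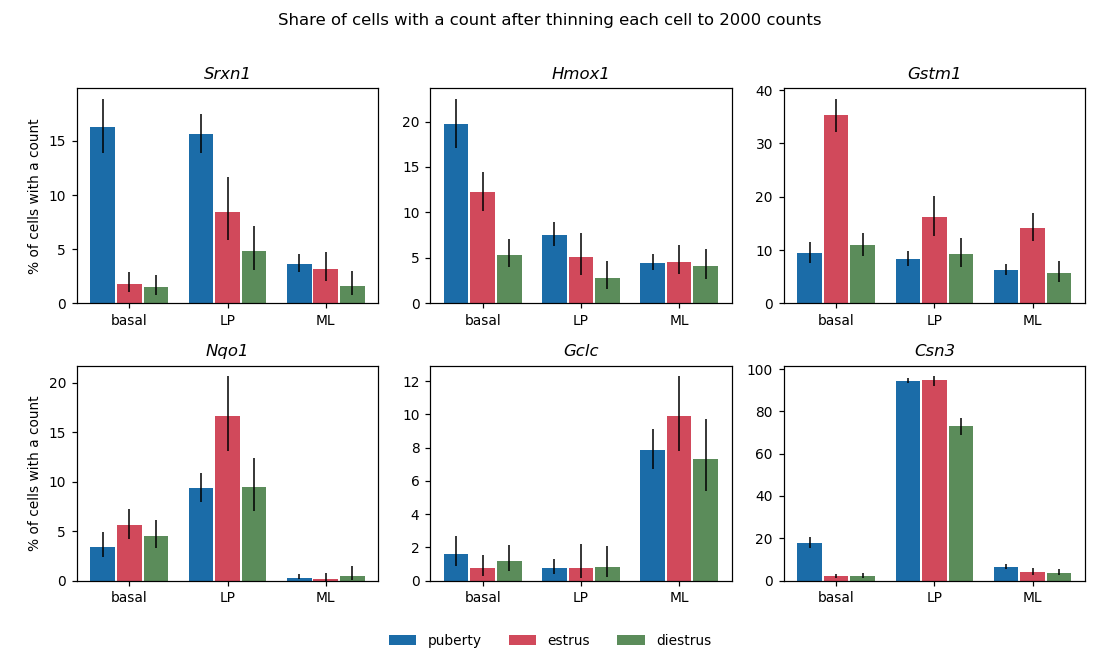
Percent of cells with at least 1 count, after each cell was thinned to 2000 counts, for 5 of the genes and for the LP marker Csn3, by class and library; bars start at 0 and lines are exact 95% binomial intervals. In puberty Srxn1 had a count in 16.3% of basal and 15.6% of LP cells, while Csn3 had one in 17.9% and 94.6%.

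The genes whose levels followed Srxn1 most closely over the 9 sums were Plekhm2 (Pearson r = 0.99), Tab2 (0.96), Zfp598 (0.95), Ippk (0.95) and Fbxo34 (0.94), on log2 CPM. The sums share 3 libraries and 3 classes, so r is a description. Plekhm2 was at 13.8 CPM in basal and 17.9 CPM in LP cells of puberty, and at 3.39 CPM in basal and 7.66 CPM in LP cells of diestrus. Within the group, r with Srxn1 was 0.66 for Prdx1, 0.54 for Hmox1 and 0.52 for Nqo1. Over all pairs of the 10 genes, r ran from -0.90, for Nqo1 with Gclc and with Gclm, to 0.76, for Txnrd1 with Gsta4.

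Txnrd1, the reductase that restores thioredoxin, was at 216, 148 and 106 CPM in basal cells of puberty, estrus and diestrus. In LP cells it was at 68.1, 63.0 and 76.9 CPM and in ML cells at 78.7, 62.0 and 85.3 CPM. The basal sums lay above all luminal sums. Txnrd1 was 2.23-fold higher in basal than in LP cells (log2 fold change 1.16 ± 0.21, adjusted p = 0.00111, edgeR) and 2.06-fold higher than in ML cells (1.04 ± 0.21, adjusted p = 0.00138). The LP and ML classes did not differ beyond their spread (-0.12 ± 0.21, adjusted p = 0.701).

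Txn1, the substrate of that reductase, was at 488, 284 and 485 CPM in basal cells of puberty, estrus and diestrus, at 337, 221 and 421 CPM in LP cells and at 569, 374 and 542 CPM in ML cells. ML cells had the highest level in each library, and estrus the lowest in each class. Txn1 was lower in LP than in ML cells (log2 fold change -0.62 ± 0.11, adjusted p = 0.00118, edgeR) and higher in basal than in LP cells (0.36 ± 0.11, adjusted p = 0.0218). The LP against ML call was lost without the library block (adjusted p = 0.174), and the basal against LP call without the block (adjusted p = 0.415), the puberty library (0.26, adjusted p = 0.255) or the estrus library (0.40, adjusted p = 0.0633). Between basal and ML cells the difference of -0.26 ± 0.11 was not called (adjusted p = 0.0668).

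Prdx1, the peroxidase served by these enzymes, was abundant in all classes. It was at 2252, 1671 and 1626 CPM in basal cells of puberty, estrus and diestrus, at 2178, 1669 and 1523 CPM in LP cells and at 2282, 1661 and 1735 CPM in ML cells. Between 91.8% and 97.2% of the cells of a class had a count. The log2 fold changes between classes were 0.05 ± 0.09, -0.03 ± 0.09 and -0.08 ± 0.09 for basal against LP, basal against ML and LP against ML. None was called (adjusted p = 0.696, 0.758 and 0.493, edgeR). With scaling by library size alone, in place of TMM, Prdx1 was called higher in basal than in LP cells (0.25) and lower in LP than in ML cells (-0.27).

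The subunits of glutamate-cysteine ligase were both highest in ML cells. Gclc, the catalytic subunit, was at 49.5, 44.9 and 35.4 CPM in ML cells of puberty, estrus and diestrus, at 10.8, 3.73 and 4.19 CPM in basal cells and at 7.03, 3.97 and 4.01 CPM in LP cells. Every ML sum was above every basal and LP sum. Gclc was 7.30-fold lower in basal than in ML cells (log2 fold change -2.87 ± 0.24, adjusted p = 2.9e-06, edgeR) and 8.65-fold lower in LP than in ML cells (-3.11 ± 0.27, adjusted p = 5.52e-06). Basal and LP cells did not differ beyond their spread (0.24 ± 0.32, adjusted p = 0.562), and the estrus LP sum rested on 7 counts.

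Gclm, the modifier subunit, was at 247, 266 and 324 CPM in ML cells, at 190.1, 155 and 209 CPM in basal cells and at 88.5, 73.8 and 75.9 CPM in LP cells of puberty, estrus and diestrus. The 3 classes did not overlap. All 3 contrasts were called, with log2 fold changes of 1.20 ± 0.14 for basal against LP (adjusted p = 3.58e-05, edgeR), -0.60 ± 0.13 for basal against ML (adjusted p = 0.00233) and -1.80 ± 0.14 for LP against ML (adjusted p = 2.25e-06). Gclm thus differed between basal and LP cells, where Gclc did not pass the test. The difference between the subunits was not tested.

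Nqo1, the quinone reductase, differed most between the luminal classes. It was at 74.5, 95.9 and 45.9 CPM in LP cells of puberty, estrus and diestrus, and at 2.03, 1.37 and 2.90 CPM in ML cells, where the sums held 22, 6 and 10 counts. In basal cells it was at 21.4, 26.1 and 18.7 CPM. The classes did not overlap. Nqo1 was 34.3-fold higher in LP than in ML cells (log2 fold change 5.10 ± 0.28, adjusted p = 1.73e-07, edgeR), 10.8-fold higher in basal than in ML cells (3.43 ± 0.29, adjusted p = 2.84e-06) and lower in basal than in LP cells (-1.67 ± 0.21, adjusted p = 7.61e-05). Each difference was seen in 3 of 3 libraries.

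Both glutathione S-transferases were higher in basal than in ML cells. Gsta4, which acts on lipid peroxidation products, was at 80.7, 86.2 and 61.6 CPM in basal cells of puberty, estrus and diestrus, at 26.4, 34.1 and 34.3 CPM in LP cells and at 21.8, 47.8 and 56.9 CPM in ML cells. It was higher in basal than in LP cells (log2 fold change 1.29 ± 0.27, adjusted p = 0.00236, edgeR) and than in ML cells (0.95 ± 0.25, adjusted p = 0.00837). The log2 difference of basal against ML cells was 1.84 in puberty, 0.84 in estrus and 0.11 in diestrus, and without the puberty library the fold change was 0.43 and the call was lost (adjusted p = 0.0783). LP and ML cells did not differ beyond their spread (-0.33 ± 0.27, adjusted p = 0.359), although without the puberty library Gsta4 was called lower in LP cells (-0.65, adjusted p = 0.0347).

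Gstm1, a transferase of the mu class, was at 59.3, 193 and 53.1 CPM in basal cells, at 64.1, 94.8 and 43.0 CPM in LP cells and at 31.8, 64.3 and 30.8 CPM in ML cells of puberty, estrus and diestrus. Estrus was the highest library in each class. Gstm1 was higher in basal than in ML cells (log2 fold change 1.14 ± 0.20, adjusted p = 0.000588, edgeR) and in LP than in ML cells (0.72 ± 0.20, adjusted p = 0.0154). Without the library block neither call held (adjusted p = 0.0694 and 0.394), and the latter was also lost without the puberty library (0.49, adjusted p = 0.105). Basal against LP was not called (0.41 ± 0.20, adjusted p = 0.115) but was called without the puberty library (0.67, adjusted p = 0.0226).

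Hmox1, heme oxygenase, was at 135, 70.4 and 27.9 CPM in basal cells of puberty, estrus and diestrus, at 68.8, 27.8 and 10.2 CPM in LP cells and at 26.6, 21.5 and 19.4 CPM in ML cells. Basal cells were above LP and ML cells in each library. Hmox1 was higher in basal than in ML cells (log2 fold change 1.60 ± 0.32, adjusted p = 0.00135, edgeR) and than in LP cells (1.13 ± 0.31, adjusted p = 0.0125). The basal against LP call was lost without the estrus library (1.09, adjusted p = 0.0607) and without the library block (adjusted p = 0.226). LP cells were above ML cells in puberty and estrus and below them in diestrus, and the contrast was not called (0.47 ± 0.34, adjusted p = 0.301). It reached adjusted p = 0.0210 without the diestrus library (0.90) and changed sign without the puberty library (-0.27).

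**Figure D3:**
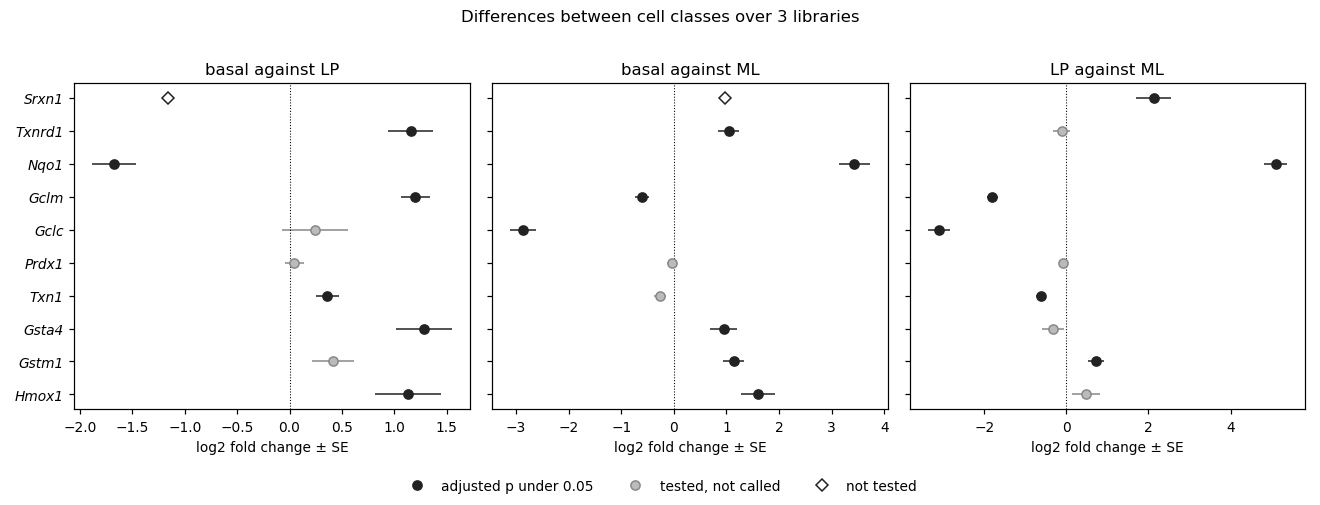
Log2 fold change (x axis) of each gene in the 3 contrasts between classes, from the edgeR fit of 9 sums of cells; lines are ± SE, filled black points passed adjusted p under 0.05, grey points did not, and open diamonds, drawn with no SE, were not tested. Nqo1 reached 5.10 and Gclc -3.11 for LP against ML, while Prdx1 lay between -0.08 and 0.05 in all 3 contrasts.

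In cells classed between LP and ML (luminal intermediate), whose sums held 226, 111 and 97 cells, 5 of the genes lay between the LP and ML levels in 3 of 3 libraries. These were Srxn1 (88.6, 20.2 and 13.5 CPM in puberty, estrus and diestrus), Nqo1 (31.3, 34.0 and 25.4 CPM), Gclm (157, 152 and 173 CPM), Gclc (32.8, 23.9 and 22.4 CPM) and Hmox1 (41.0, 22.7 and 14.96 CPM). Txnrd1 and Prdx1 did so in 0 of 3 libraries. In puberty, however, Txnrd1 was at 67.0 CPM (53.9 to 82.4) in these cells, close to 68.1 CPM in LP cells. TMM scaling of the intermediate sums was computed with that class added, and that of the LP and ML levels without it, so close levels cannot be ordered. The share of all genes lying between the LP and ML levels was not taken, so the count of 5 cannot be read as particular to these genes. Luminal intermediate cells were placed between both classes by their marker genes, and no doublets were called. Their median depth was 5924 to 7117 counts per cell, against 2538 to 4668 in the basal, LP and ML classes. Their estrus and diestrus levels rested on 16 and 9 counts for Srxn1, 18 and 10 for Hmox1 and 19 and 15 for Gclc. The Hmox1 intervals there, 13.4 to 35.8 and 7.17 to 27.5 CPM, held both the LP and the ML level.

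The wider pathway was described with 112 genes of the tables in 7 lists, of which 94 passed the filter. Outside the 10 genes, 84 list genes were tested. Of these, 19 were higher and 29 lower in basal than in LP cells, 32 higher and 36 lower in basal than in ML cells, and 30 higher and 26 lower in LP than in ML cells. Over all genes, 45.3%, 55.7% and 41.1% were called in these contrasts, and the counts of each list that follows are to be read beside those shares. The median log2 fold changes of the 84 genes were -0.21, -0.14 and 0.03.

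Among thioredoxin and peroxiredoxin genes, 5 of 20 tested were higher and 7 lower in basal than in LP cells. The median over all 21 genes of the list, untested Srxn1 included, was -0.19. Txnip, an inhibitor of thioredoxin, was at 20.9, 61.1 and 39.9 CPM in basal cells of puberty, estrus and diestrus and at 353, 597 and 252 CPM in LP cells (log2 fold change -3.38 ± 0.29, adjusted p = 4.94e-06, edgeR). The mitochondrial peroxiredoxin Prdx3 was lower in basal cells than in LP (-1.20 ± 0.12) and ML cells (-1.42 ± 0.12). Unlike Prdx1, Prdx6 was lower in basal (-1.16 ± 0.11) and LP cells (-0.97 ± 0.11) than in ML cells. Txnrd3, a further reductase, was higher in basal than in ML cells (2.12 ± 0.35), as Txnrd1 was.

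Glutathione synthesis, turnover and NADPH genes were mostly on the ML side. Of 19 tested, 4 were higher and 13 lower in basal than in ML cells (median -1.10), and 5 were higher and 11 lower in LP than in ML cells (median -0.85), with Gclc and Gclm among the lower ones. Cbs, which feeds cysteine into the pathway, was at 15.3, 15.6 and 14.5 CPM in ML cells and at no more than 1.45 CPM in basal cells (-3.78 ± 0.35, adjusted p = 5.75e-06, edgeR). Cth, the next enzyme of that route, went the other way, with 15.2, 8.08 and 13.2 CPM in basal and at most 0.83 CPM in ML cells (4.40 ± 0.50). Ggt1, which breaks down glutathione outside the cell, was higher in basal (3.46 ± 0.22) and ML cells than in LP cells (LP against ML -2.75 ± 0.22). Slc3a2, the heavy chain of the cystine carrier, was higher in LP than in ML cells (2.13 ± 0.21). Me1, an NADPH source, was lower in basal cells than in both luminal classes (-3.81 ± 0.26 against LP and -2.83 ± 0.26 against ML), and 32.0% of its 3′-end words also occur in other genes.

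Of 16 glutathione S-transferases tested, 5 were higher and 3 lower in basal than in LP cells (22.7% and 22.6% of all genes), and 6 higher and 7 lower in basal than in ML cells (29.9% and 25.8% of all genes). Mgst1, a microsomal transferase, was at 4682, 3728 and 2569.5 CPM in LP cells of puberty, estrus and diestrus, against 448, 486 and 353 CPM in basal cells (-3.07 ± 0.14, adjusted p = 3.81e-08, edgeR) and 281, 237 and 227 CPM in ML cells (LP against ML 3.85 ± 0.14). Gstt2 was lower in basal than in ML cells (-3.82 ± 0.16) and so was Gstt3 (-3.08 ± 0.20), the reverse of Gsta4 and Gstm1. Gstm5 was higher in basal than in ML cells (2.15 ± 0.14), as Gstm1 was.

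Of 8 genes tested that remove peroxide and superoxide, 3 were higher and 4 lower in basal than in LP cells, and 4 were higher and 2 lower in basal than in ML cells. Gpx3, a secreted glutathione peroxidase, was at 3684, 1451 and 1357 CPM in ML cells of puberty, estrus and diestrus and at 45.7, 6.84 and 12.6 CPM in basal cells (-6.85 ± 0.25, adjusted p = 6.87e-09, edgeR). Gpx7 and Gpx8, peroxidases of the endoplasmic reticulum, were higher in basal than in ML cells (5.04 ± 0.28 and 6.0 ± 0.33). Catalase (Cat) was higher in LP than in ML cells (1.64 ± 0.14) and lower in basal than in LP cells (-1.0 ± 0.13).

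The gene of NRF2 itself, Nfe2l2, was at 233, 153 and 137 CPM in basal cells of puberty, estrus and diestrus, at 132, 95.4 and 86.4 CPM in LP cells and at 79.3, 64.6 and 70.8 CPM in ML cells. It was higher in basal than in LP cells (0.72 ± 0.13, adjusted p = 0.000941, edgeR). Of the 12 genes of NRF2 and its partners, 1 was higher and 2 lower in basal than in LP cells, and 6 were higher and 2 lower in basal than in ML cells. Maff, a small MAF partner, was at 1171, 1216 and 504 CPM in basal and 169, 130.5 and 98.1 CPM in ML cells (2.79 ± 0.16), and it was also higher in LP than in ML cells (2.58 ± 0.16). Sqstm1, a binding partner of KEAP1, was lower in basal than in LP cells (-1.47 ± 0.14), and Nfe2l3, a relative of NRF2, was lower in basal cells than in LP (-4.86 ± 0.36) and ML cells (-3.97 ± 0.36).

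Among the genes for quinones, carbonyls, heme and iron, all 16 tested differed between basal and ML cells, 9 higher and 7 lower in basal cells. Cbr3, a carbonyl reductase, was higher in basal cells than in LP (2.90 ± 0.29) and ML cells (2.87 ± 0.27). Ephx1, an epoxide hydrolase, and Osgin1, a known NRF2 target, followed the order of Nqo1 and were higher in LP than in ML cells (3.09 ± 0.26 and 2.29 ± 0.21) and lower in basal than in LP cells (-1.08 ± 0.23 and -1.23 ± 0.19). The metallothioneins Mt1 and Mt2 were higher in basal than in LP cells (0.59 ± 0.16 and 0.65 ± 0.18) and than in ML cells (1.18 ± 0.16 and 0.85 ± 0.18). Mt2, Gstp1 and Gpx4 share 44.8%, 37.7% and 57.9% of their 3′-end words with other genes.

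Genes known to respond to tissue dissociation were listed beside these. Of 12, 3 were higher and 7 lower in basal than in LP cells, 4 higher and 4 lower in basal than in ML cells, and 3 higher and 2 lower in LP than in ML cells. Ier2 and Jun, immediate early genes, were lower in basal than in LP cells (-1.18 ± 0.11 and -1.17 ± 0.16), while the heat shock genes Hsph1 and Hspb1 were higher (1.71 ± 0.29 and 0.94 ± 0.20). Their part in the results of the 10 genes was not tested.

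Between stages, each value compares 1 library with 1 other. Ratios are given as log2 ratios of CPM + 1, and past 2-fold means a size of at least 1 on that scale, among genes with at least 30 counts over the 3 libraries in a class. All 10 genes met that minimum in each class. With library size alone in place of TMM, the all-gene median shifted by -0.33 at most (LP cells, puberty to diestrus), and with DESeq2 size factors by -0.04 at most. Both ratios of puberty share the puberty library.

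From puberty to estrus, 2 of the 10 genes were past 2-fold higher in basal cells of puberty and 1 lower, where 13.0% of all 10568 genes were past 2-fold (5.81% higher, 7.15% lower). From puberty to diestrus, 4 were higher and 0 lower in basal cells, where 9.33% of all genes were past 2-fold (5.26% higher, 4.07% lower). In LP cells 2 genes were higher and 0 lower in each of these ratios, where 10.4% and 10.5% of 9671 genes were past 2-fold (6.55% and 6.62% higher, 3.81% and 3.87% lower). In ML cells 1 was higher and 1 lower in each, where 7.69% and 6.94% of 10443 genes were past 2-fold (5.28% and 4.50% higher, 2.41% and 2.44% lower). Between diestrus and estrus all genes past 2-fold were lower in diestrus. They numbered 2 (basal cells), 3 (LP) and 1 (ML), where 9.59%, 13.1% and 7.53% of all genes were past 2-fold (4.82%, 7.12% and 4.43% higher, 4.77%, 5.94% and 3.09% lower). Srxn1 is among the genes higher in puberty by the way it was chosen.

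Srxn1 was 10.5 times as high in basal cells of puberty as of estrus (95% counting interval 7.94 to 14.2) and 18.5 times as high as in diestrus (12.9 to 27.3). In LP cells the same ratios were 3.11 (2.48 to 3.95) and 5.44 (4.28 to 7.0), and in ML cells 2.10 (1.57 to 2.86) and 3.25 (2.20 to 4.99). Between diestrus and estrus Srxn1 was at 0.571 times the estrus level in basal cells (0.357 to 0.900), which was not past 2-fold.

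Hmox1 had the next largest ratios. From puberty to diestrus its ratio was 4.84 in basal cells (4.02 to 5.87) and 6.74 in LP cells (4.59 to 10.3), but 1.37 in ML cells (1.05 to 1.81). From puberty to estrus it was 1.92 in basal (1.67 to 2.20) and 2.47 in LP cells (1.84 to 3.40). Diestrus was also below estrus in basal (0.396, 0.323 to 0.484) and LP cells (0.367, 0.222 to 0.596), so that in both classes the order was puberty, estrus, diestrus. The share of thinned basal cells with a Hmox1 count followed that order, with 19.7%, 12.2% and 5.36%. In basal cells not called cycling (counts for fewer than 3 of 10 cell cycle genes), Hmox1 was at 43.5 CPM in diestrus and 80.5 CPM in estrus. That difference was not past 2-fold, and the part of cycling cells was not tested.

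Gstm1 set estrus apart. In basal cells its puberty to estrus ratio was 0.306 (0.265 to 0.353) and its diestrus to estrus ratio 0.274 (0.238 to 0.315), while puberty and diestrus were close (1.12, 0.934 to 1.33). The diestrus to estrus ratio was 0.454 in LP cells (0.356 to 0.578) and 0.478 in ML cells (0.379 to 0.600). Thinned basal cells had a Gstm1 count in 35.3% of cells in estrus, 9.40% in puberty and 10.9% in diestrus. Txn1 was lower in estrus in each class, with diestrus to estrus ratios of 1.71, 1.90 and 1.45 in basal, LP and ML cells, none past 2-fold.

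The other genes moved in 1 class each or stayed within 2-fold. Gsta4 was past 2-fold lower in ML cells of puberty, with ratios of 0.456 to estrus (0.377 to 0.552) and 0.384 to diestrus (0.316 to 0.466). Nqo1 was lower in LP cells of diestrus than of estrus (0.479, 0.377 to 0.607). In LP cells not called cycling it was at 67.8 CPM in diestrus and 112 CPM in estrus, which was not past 2-fold. Cycling cells made up 17.2% of LP cells in diestrus and 4.44% in estrus, and their part in the ratio was not tested. Txnrd1 was 2.04 times as high in basal cells of puberty as of diestrus (1.83 to 2.28), and Gclc was 2.90 times (1.64 to 5.34) and 2.58 times (1.5 to 4.57) as high in basal cells of puberty as of estrus and diestrus, from 44, 18 and 21 counts. Prdx1 was higher in puberty in each class, by 1.31 to 1.43 times. Gclm stayed between 0.760 and 1.35 times in all classes and ratios.

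**Figure D4:**
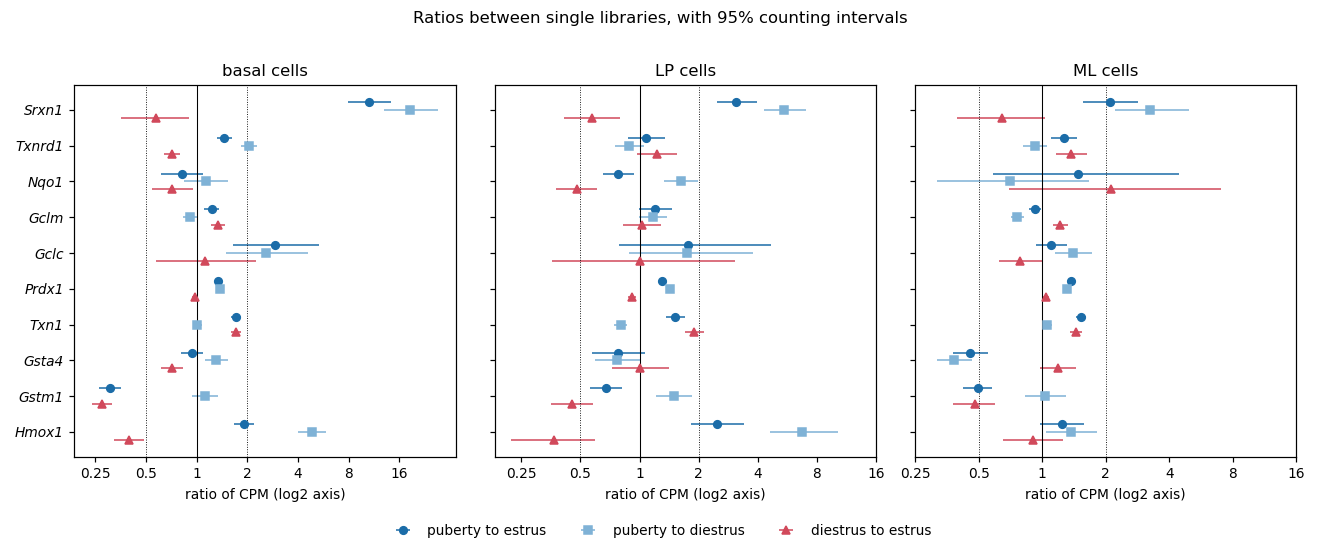
Ratio of CPM between libraries (x axis on a log2 scale) for each gene in basal, LP and ML cells, with 95% counting intervals; the solid line marks a ratio of 1 and dotted lines mark 0.5 and 2. Srxn1 in basal cells was at 10.5 (puberty to estrus) and 18.5 (puberty to diestrus), and Gstm1 in basal cells at 0.306 (puberty to estrus) and 0.274 (diestrus to estrus).

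The libraries also differed in other genes. From puberty to estrus, the 12 dissociation genes had median log2 ratios of -1.53 (basal), -1.13 (LP) and -1.08 (ML), where the median of all genes was -0.01, 0.03 and 0.02, and 9, 8 and 7 of them were past 2-fold lower in puberty, beside 7.15%, 3.81% and 2.41% of all genes. From puberty to diestrus their medians were -0.70, -0.19 and -0.61 in the same order of classes. In that ratio 4 of the 12 were past 2-fold lower in basal cells and 1 in ML cells (4.07% and 2.44% of all genes), while 0 were lower and 3 higher in LP cells (3.87% and 6.62% of all genes). Fos was at 1241 CPM in basal cells of puberty and 7421 CPM of estrus, and Hspa1b at 1.72 and 17.8 CPM. The part of these genes in the stage ratios of the 10 genes was not tested. The share of cycling cells in the basal class was 13.4% in puberty, 5.42% in estrus and 21.1% in diestrus, and the median mitochondrial share of counts was 1.17%, 0.975% and 0.700%.

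Outside the 10 genes, 79 list genes had enough counts in basal cells. From puberty to estrus 5 of them were past 2-fold higher and 6 lower in puberty, beside 5.81% and 7.15% of all genes, and from puberty to diestrus 8 were higher and 1 lower, beside 5.26% and 4.07%, with medians of 0.03 and 0.15 beside -0.01 and 0.03 over all genes. Mt1 was at 9054, 1880 and 4636 CPM in basal cells of puberty, estrus and diestrus, with log2 ratios to estrus of 2.27 in puberty and 1.30 in diestrus. Gpx3 was at 45.7, 6.84 and 12.6 CPM there, highest in puberty. In ML cells it was far higher, at 3684, 1451 and 1357 CPM, and the part of free RNA in its basal counts was not tested. Bach1, a repressor at NRF2 sites, was at 33.2, 13.7 and 8.98 CPM in basal cells, and Maff at 1171, 1216 and 504 CPM. Osgin1, at 45.5, 36.9 and 13.0 CPM, was lower in diestrus in basal cells. Gstp1 was at 62.0, 128 and 12.8 CPM in basal cells and at 68.4, 140.3 and 11.6 CPM in ML cells, with the lowest level in diestrus. Txnip was lower in puberty than in estrus in basal (-1.50) and ML cells (-2.09).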

How the data were processed

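The authors captured the cells on the 10x Genomics Chromium 3′ platform, sequenced them on a NextSeq 500 and, per the labels, made the deposited tables with Cell Ranger 2.0 on mm10. The deposited values are whole-number counts of molecules for each gene in each barcode, without normalization. The authors' barcodes were used. The members and lists were chosen with earlier results of these data known. Cells were classed per library by signatures of up to 100 genes (2-fold in every library, detected in 10% of seeds), with borders at 1/3 and 2/3. Non-epithelial and mixed cells were left out, and no doublet caller was run. Counts were summed per class and library and fitted with edgeR 4.0.16 in R 4.3.3 (TMM, filterByExpr, library block, quasi-likelihood F test, Benjamini-Hochberg adjustment, 4 residual degrees of freedom). The SE is the log2 fold change divided by the root of F. Stage ratios used a pseudocount of 1 CPM, with exact 95% intervals. Named genes are the 10 members, up to 2 called list genes per direction, list and comparison with the largest change, and the 5 genes with the highest r with Srxn1. Alternatives were other scalings, filters, tests, cell sets, cell classes and the second puberty table.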

Additional observations from a re-analysis of the deposited data

How the results depend on the processing

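With 1 library per stage, no stage ratio has a replicate check, and ML cells held few Nqo1 counts. Over the alternatives, 421 of 450 values for a gene and class contrast kept direction and side of the threshold, 10 passed it newly, 15 fell short and 4 changed sign. Without the puberty library these were Srxn1 (basal against ML, -0.31 to 1.42 over the fits without 1 library), Gclc (basal against LP, -0.046 to 0.44) and Hmox1 (LP against ML, -0.27 to 0.90), and without cycling cells Prdx1 (basal against ML, 0.016). The 450 values include the untested contrasts of Srxn1 with basal cells. Those counted as kept when the sign held and the shift was below the SD over the libraries. Other kinds of value were less stable. Of 897 values for a stage ratio, 94 were counted as moved from the main result, and of 210 values for a share of cells, 112 were. The alternatives for shares include thinned cells and the second puberty table, which hold fewer counts per cell. Over the fits that left out 1 library, between 3897 and 4257, 5100 and 5548, and 3254 and 3762 genes were called for basal against LP, basal against ML and LP against ML. Of the 10 genes, 9, 9 and 10 were tested in these contrasts, and 4 to 6, 6 to 8 and 6 to 7 were called. Without the library block, 2926 genes and 3 of the 10 were called for LP against ML, and Srxn1 (2.18, adjusted p = 0.138), Txn1 and Gstm1 fell short. With library size alone, 64.1% of basal against LP calls and 38.6% of LP against ML calls were higher in the class named first, against 50.1% and 53.1% with TMM. For past 2-fold counts, a pseudocount of 5 CPM left 2 genes from puberty to diestrus in basal cells, 0 from diestrus to estrus and 0 from puberty to estrus in ML cells. Limiting cells to those with 1000 genes or more and a mitochondrial share under 10% left 2 from puberty to diestrus in basal cells. Without cycling cells, 1 remained in basal and 0 in ML cells from diestrus to estrus. Means over cells left 1 in LP cells from diestrus to estrus and 1 from puberty to estrus, as library size alone did. The cause was not tested. The class contrasts were paired within each library by the block. Between stages, no paired analysis was possible because the labels number only the 2 puberty tables, which hold the same cells.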

Other observations

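Cells called cycling (counts for at least 3 of 10 cell cycle genes) were compared with the other cells of their class in the 9 sums, as a description with no test. Txn1 was higher in cycling cells in 9 of 9 sums (median log2 difference 0.54, range 0.22 to 0.75) and Gclm in 9 of 9 (0.32, range 0.05 to 1.08). Hmox1 was higher in cycling cells in 0 of 9 sums (median -1.45, range -3.40 to -0.85) and Gstm1 in 0 of 9 (-1.01, range -2.24 to -0.51). Gsta4 was higher in 1 of 9 sums and Nqo1 in 2 of 9. Srxn1 was higher in 2 of 9 sums, with a median of -0.39. The share of all genes that went 1 way in 9 of 9 sums was not taken, so these counts cannot be read as particular to these genes. Some values rest on few counts in cycling cells, down to 4 for Hmox1 (LP cells of estrus) and 0 for Nqo1 (ML cells of estrus). Cycling cells made up 4.44% to 21.1% of a class, and sums of the same library share its preparation.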
